A study of Mus musculus with 6 samples.

Results

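The genes described here encode DOT1L, the enzyme that methylates lysine 79 of histone H3 (H3K79), and proteins that bind it or act with it in transcription elongation. They are Dot1l, Mllt3 (AF9), Mllt1 (ENL), Mllt10 (AF10), Mllt6 (AF17), Aff1 (AF4), Aff4, Ell, Ell2 and Men1 (menin). They were taken by gene name, and all 10 were among the 24012 genes of the deposited count table. Chromatin immunoprecipitation followed by sequencing (ChIP-seq) had been done with antibodies to di- and trimethylated H3K79 (H3K79me2 from Abcam, H3K79me3 from Diagenode). The cells were primary progenitors of mouse blood, taken from bone marrow and transduced with a retrovirus that expressed the MLL-AF9 fusion. All groups carried the fusion, as WT, as D544R or as D546R, and no cells without it were analysed here. Each genotype gave 1 library per mark, 6 libraries in all, so no test between groups was possible. In the usual notation each mutant has an arginine in place of an aspartate, at nearby places within the AF9 part of the fusion. The study asked how the strength of DOT1L binding by the fusion relates to H3K79 methylation.

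DOT1L methylates H3K79 mainly within the transcribed part of active genes. AF9 and its paralog ENL share a C-terminal domain that can bind DOT1L or an AFF scaffold protein, while AF10 and AF17 bind another part of DOT1L. AFF1 and AFF4 are scaffolds of the super elongation complex, which joins ELL proteins to the kinase P-TEFb. Fusions of MLL with several of these proteins cause leukemia, and menin tethers MLL to chromatin. The measurement here was methylation on the genes themselves, which is neither their RNA nor the binding of their proteins.

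The level given for each gene is its read count over a region set by the authors, in mm9. Its header describes the region as the transcript with 2 kb added ahead of its start. RefSeq start sites of GRCm38 were compared with the regions through the local shift between the builds. Of 9867 start sites of minus-strand genes, 6490 lay at the upper end of the region within 10 bases and 0 lay 2000 bases inside it. The 2 kb were therefore added at the lower coordinate for both strands. For Mllt1 and Mllt3, the 2 minus-strand genes of the 10, the region runs from 2 kb past the transcript end to the start and holds no sequence before the start.

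The region of Mllt3 (NM_029931, mm9 chromosome 4, 87413829 to 87452227) was 38.4 kb long and ended at an internal RefSeq start. The other RefSeq start of Mllt3 lies 227.1 kb upstream, outside the counted region. The Mllt3 counts therefore describe the part of the gene downstream of the internal start. The retrovirus carries AF9 coding sequence, and reads from vector DNA could also fall on exons in this region, which was not tested. The 250 bases before each of the 2 starts are shown to make the difference visible, with each CG dinucleotide, which reads the same on both strands, in capitals. The sequences are from RefSeq on GRCm38.p6, minus strand, at chr4:88033408-88033657 for the upstream start and chr4:87806324-87806573 for the internal start.
Mllt3 upstream start: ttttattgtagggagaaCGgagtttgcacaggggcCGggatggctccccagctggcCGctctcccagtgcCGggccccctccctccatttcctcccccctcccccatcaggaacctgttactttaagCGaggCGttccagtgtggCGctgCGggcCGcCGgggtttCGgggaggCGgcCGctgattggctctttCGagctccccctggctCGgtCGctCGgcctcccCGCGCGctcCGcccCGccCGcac
Mllt3 internal start: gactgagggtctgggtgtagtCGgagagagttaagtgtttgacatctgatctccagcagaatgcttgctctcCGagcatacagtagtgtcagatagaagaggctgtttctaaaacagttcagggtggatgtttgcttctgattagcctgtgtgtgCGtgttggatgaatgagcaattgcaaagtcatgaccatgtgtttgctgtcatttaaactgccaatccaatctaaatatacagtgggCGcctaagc
The upstream stretch held 23 CG dinucleotides and 69.2% G and C, and the internal stretch held 4 and 45.2%. The median of all 32851 RefSeq starts was 6 CG dinucleotides and 52.4% G and C. The upstream start is thus the CG-rich one of the pair, and it is the one that was not counted.

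The starts of Ell (chr8:70539425-70539674, plus strand) and Mllt1 (chr17:56935389-56935638, minus strand) are shown in the same way, because these were the 2 genes past the 2-fold rule described later.
Ell: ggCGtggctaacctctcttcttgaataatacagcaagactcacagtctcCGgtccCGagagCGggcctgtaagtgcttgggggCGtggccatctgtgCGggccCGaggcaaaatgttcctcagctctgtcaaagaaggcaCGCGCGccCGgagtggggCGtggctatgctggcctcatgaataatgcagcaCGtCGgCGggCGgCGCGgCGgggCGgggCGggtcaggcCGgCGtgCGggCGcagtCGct
Mllt1: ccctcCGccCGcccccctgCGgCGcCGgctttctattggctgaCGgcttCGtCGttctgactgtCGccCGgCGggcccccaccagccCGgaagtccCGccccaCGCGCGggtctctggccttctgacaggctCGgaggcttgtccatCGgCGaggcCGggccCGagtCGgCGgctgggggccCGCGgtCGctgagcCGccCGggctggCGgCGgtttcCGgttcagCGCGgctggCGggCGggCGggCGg
These stretches held 26 CG dinucleotides in Ell and 37 in Mllt1. Of the 10 genes, 8 were counted from a start with 19 to 44 CG dinucleotides in the 250 bases before it, and 19.7% of all RefSeq starts held at least 19. The number 19 was chosen after these values were seen. The exceptions were the internal start of Mllt3 and the starts of Men1, with 8 to 10.

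The libraries held 3558329 to 6652571 counts. Blood and progenitor marker genes had counts in every library (8 of 8), and 7 or 8 of the 8 lay above the median of all genes in counts per kb. Of the 5 markers of stroma and other tissues, 0 to 2 lay above it, as did 0 to 3 of 5 lymphoid and 0 to 3 of 5 erythroid and megakaryocyte markers. The highest of these were 3 lymphoid markers in D544R and 3 erythroid and megakaryocyte markers in D546R, both in H3K79me3. Reads per independent fragment, estimated from short regions without a count, were 3.26 to 4.78 in H3K79me2 and 8.12 to 18.63 in H3K79me3, with the highest value in the D546R H3K79me3 library. Intervals called fragment intervals here are 95% intervals of the log2 ratio after dividing counts by this number. Counting intervals use the reads themselves. Both cover counting error only, not variation between cultures.

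Within a library the genes differed widely in signal per length. Aff1 (NM_133919, chromosome 5, 104181181 to 104284341) was the densest of the 10 in all 6 libraries. In H3K79me2 it had 29.25 counts per kb in WT, 19.95 in D544R and 18.46 in D546R, above 97.1% to 97.7% of all regions of at least 5 kb. In H3K79me3 it had 19.60, 13.28 and 21.53, above 96.0% to 97.5%. Against the median of 24 genes of other tissues, taken as silent in blood, Aff1 was 11.2-fold higher in WT in H3K79me2 and 11.7-fold in H3K79me3. Against the median of all genes these values were 7.47-fold and 4.25-fold, so the fold depends on the reference.

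In WT H3K79me2 the order after Aff1 was Mllt10, Ell, Aff4, Ell2, Dot1l, Mllt1, Men1, Mllt3 and Mllt6, from 15.43 down to 2.54 counts per kb. Aff1 differed from Mllt10 by 1.90-fold (fragment interval on the fold scale 1.70 to 2.12) and Dot1l from Mllt1 by 1.52-fold (1.11 to 2.09). The other 7 pairs of neighbours in this order had intervals that included equal levels. Dot1l stood at 9.77 counts per kb, above 82.2% of regions. Mllt3 stood at 4.38, above 55.3%, and Mllt6, the lowest, above 14.8%.

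In WT H3K79me3 the order was Aff1, Ell2, Mllt10, Aff4, Ell, Dot1l, Mllt3, Men1, Mllt1 and Mllt6, from 19.60 to 1.12 counts per kb. Only the step from Aff1 to Ell2, 1.85-fold (1.41 to 2.46), had an interval above equal levels. Mllt1 was above 19.6% of regions and Mllt6 above 6.0%. Dot1l, above 82.2% in H3K79me2, was above 47.1% here.

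In the mutants Aff1 stayed at the top, and the order below it differed by mark. In D544R the step from Aff1 to the next gene was 1.73-fold over Ell in H3K79me2 (1.47 to 2.04) and 1.54-fold over Mllt10 in H3K79me3 (1.23 to 1.92). In D546R H3K79me2, Aff1 was 1.63-fold above Aff4 (1.36 to 1.96). In D546R H3K79me3 the second gene was Ell at 15.91 counts per kb, with Aff1 1.35-fold above it (0.96 to 1.94) and Aff4 1.72-fold below it (1.09 to 2.72). Ell had been the fifth of the 10 in WT H3K79me3.

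**Figure D1:**
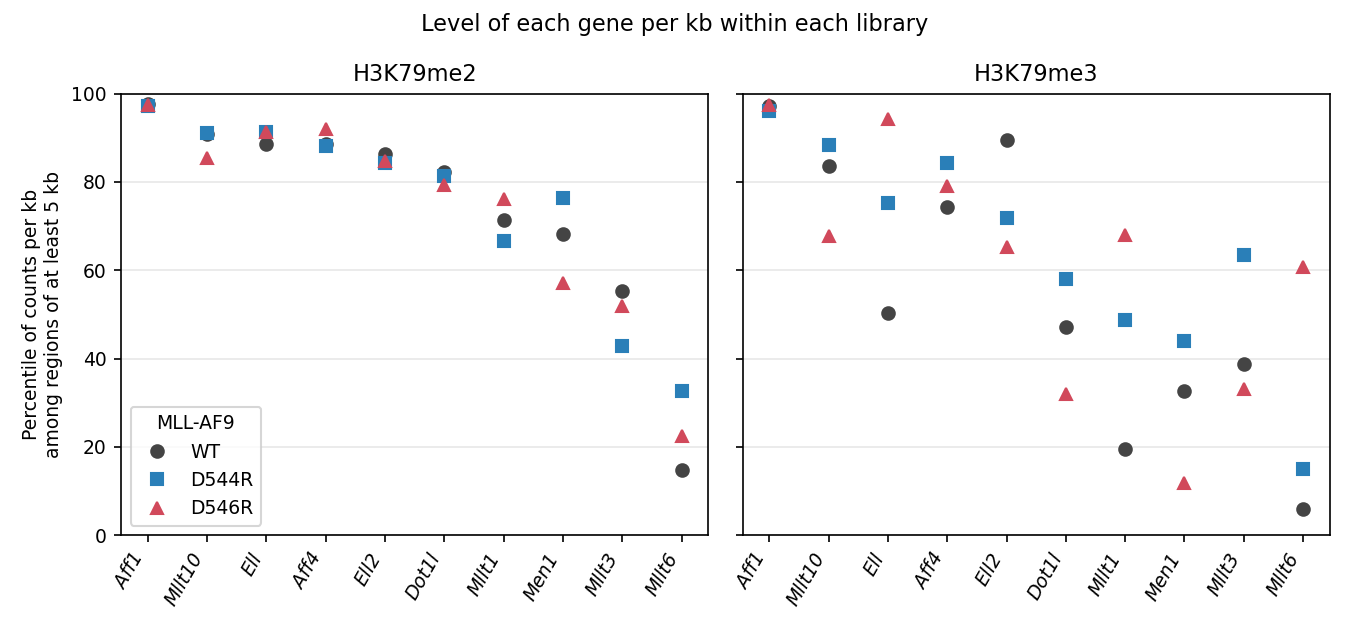
Percentile of counts per kb of each gene (y axis, 0 to 100, among all regions of at least 5 kb of the same library) in H3K79me2 (left) and H3K79me3 (right), 1 library per point, with genes in the order of their WT H3K79me2 level. The 3 genotypes lie close together in H3K79me2 for Aff1 to Dot1l, while in H3K79me3 the percentile of Ell goes from 50.4 in WT to 94.3 in D546R.

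Ratios between genotypes used normalised counts, that is counts divided by a size factor (median-of-ratios method, each mark on its own). This scaling sets the typical gene to no change, so a gain or loss of the mark shared by all genes would not be visible. In a mixed population, fewer cells carrying the mark and less mark per cell cannot be told apart. The 2-fold rule had 3 conditions: a ratio of 2-fold or more, a counting interval without 0 on the log2 scale, and normalised counts averaging at least 100 in that mark. In each mark 8 of the 10 genes had that mean, and Mllt6 and Men1 did not. The rule is one of size and not a significance test. In H3K79me2, 0 of the 8 were past it in D544R against WT (0.0449% of all 8905 genes with that mean were), 0 in D546R against WT (1.75%) and 0 in D546R against D544R (1.65%). In H3K79me3, 0 were past it in D544R against WT (7.38% of 10824 genes), 2 in D546R against WT (15.9%) and 0 in D546R against D544R (14.1%). The 2 were Mllt1 and Ell, both higher in D546R, and 2 of 8 has to be read against that 15.9%.

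With a ratio of at least 1.5-fold in place of 2-fold, 0 of 8 genes were past the rule in H3K79me2 in D544R against WT (1.37% of all genes), 0 in D546R against WT (13.1%) and 1 in D546R against D544R (12.5%). In H3K79me3 they were 2 (24.0%), 3 (36.5%) and 3 (34.3%). The median log2 ratio of the 10 genes in H3K79me2 was -0.02 in D544R against WT and 0.09 in D546R against WT, where all genes with a mean of at least 10 had medians of 0.00 and 0.01. In H3K79me3 it was 0.33 and -0.11, beside -0.01 for all genes in each. Over the 4 genes that overlap no other region, the H3K79me3 median in D544R was 0.06 in place of 0.33, and the H3K79me2 medians were -0.15 and 0.15. Comparisons against WT share the WT library of their mark.

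Dot1l (NM_199322, chromosome 10, 80215951 to 80257092), the methyltransferase gene, had 402, 283 and 232 H3K79me2 counts in WT, D544R and D546R, which are 298.6, 291.1 and 303.7 after scaling. Its log2 ratios to WT were -0.04 (fragment interval -0.47 to 0.39) in D544R and 0.03 (-0.50 to 0.53) in D546R. The normalised counts of the 3 genotypes thus lay within 1.04-fold of each other. In H3K79me3 the counts were 188, 199 and 184. D544R stood at 0.25 (-0.67 to 1.19), D546R at -0.28 (-1.55 to 0.89), and D546R against D544R at -0.54 (-1.77 to 0.58). Each of these intervals reached past 2-fold in at least 1 direction, so a 2-fold difference of Dot1l could not be told from none in H3K79me3.

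Mllt3, the gene of AF9, had 168, 102 and 87 H3K79me2 counts in WT, D544R and D546R. Scaled to 124.8, 104.9 and 113.9, they gave log2 ratios of -0.25 (-0.97 to 0.45) and -0.13 (-1.01 to 0.70). In H3K79me3 it had 157, 199 and 175 counts, with ratios of 0.51 (-0.45 to 1.52) in D544R and -0.09 (-1.43 to 1.15) in D546R. D544R was thus the lowest of the 3 libraries in one mark and the highest in the other. D546R against D544R in H3K79me3 was -0.61, past the 1.5-fold rule on reads, with a fragment interval of -1.87 to 0.53.

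Mllt1 (NM_022328, chromosome 17, 57030034 to 57074811) encodes ENL, the AF9 paralog. In H3K79me3 it had 122 counts in WT, 193 in D544R and 336 in D546R, scaled to 124.2, 221.5 and 287.5. Both mutant libraries were higher than WT. D546R was 2.31-fold higher, a log2 ratio of 1.21 (fragment interval 0.09 to 2.38), and D544R stood at 0.83 (-0.21 to 1.95). In H3K79me2 the counts were 288, 184 and 221, with ratios of -0.18 (-0.71 to 0.35) in D544R and 0.44 (-0.13 to 0.99) in D546R. D546R was 1.53-fold above D544R in that mark, 0.61 (0.02 to 1.2), the 1 gene past the 1.5-fold rule there.

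Per kb in H3K79me3, Mllt1 was above 19.6%, 48.7% and 68.0% of regions in WT, D544R and D546R, and Mllt3 above 38.7%, 63.5% and 33.0%. Kmt2a, the endogenous MLL gene, part of whose coding sequence is in the fusion, had 712, 440 and 446 counts in H3K79me2 and 491, 451 and 683 in H3K79me3. Its log2 ratios to WT were -0.22 (-0.56 to 0.11) and 0.14 (-0.24 to 0.51) in H3K79me2, and 0.05 (-0.53 to 0.63) and 0.22 (-0.43 to 0.87) in H3K79me3, D544R first. Whether vector DNA added to these counts was not tested.

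Mllt10 (NM_001252561, chromosome 2, 17984212 to 18134017) encodes AF10, a cofactor of DOT1L needed for higher methylation states. It had 2311, 1719 and 1146 H3K79me2 counts and 1271, 1295 and 1117 H3K79me3 counts in WT, D544R and D546R. D546R was the lowest library in both marks after scaling. Against WT it stood at -0.19 (-0.42 to 0.03) in H3K79me2 and -0.44 (-0.90 to 0.01) in H3K79me3. Against D544R it stood at -0.24 (-0.46 to -0.01) and -0.64 (-1.09 to -0.20), the second past the 1.5-fold rule. In D544R against WT the ratios were 0.04 (-0.13 to 0.22) and 0.20 (-0.14 to 0.54). Of the Mllt10 region, 5.38% overlapped that of Dnajc1, so some counts are shared.

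Mllt6 (NM_139311, chromosome 11, 97522726 to 97546772), the gene of AF17, had few counts. In H3K79me3 there were 27 in WT, 53 in D544R and 162 in D546R, scaled to 27.5, 60.8 and 138.6. The log2 ratio was 2.31 (0.27 to 4.98) in D546R and 1.13 (-1.07 to 3.86) in D544R, but its mean of 75.6 kept it outside the 2-fold rule. In H3K79me2 the counts were 61, 57 and 34, and D546R stood at -0.02 (-1.55 to 1.35). The intervals of D546R in the 2 marks overlapped, and the difference between them was not tested. The region overlapped those of Cisd3 and Mir6927 over 14.88% of its length.

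**Figure D2:**
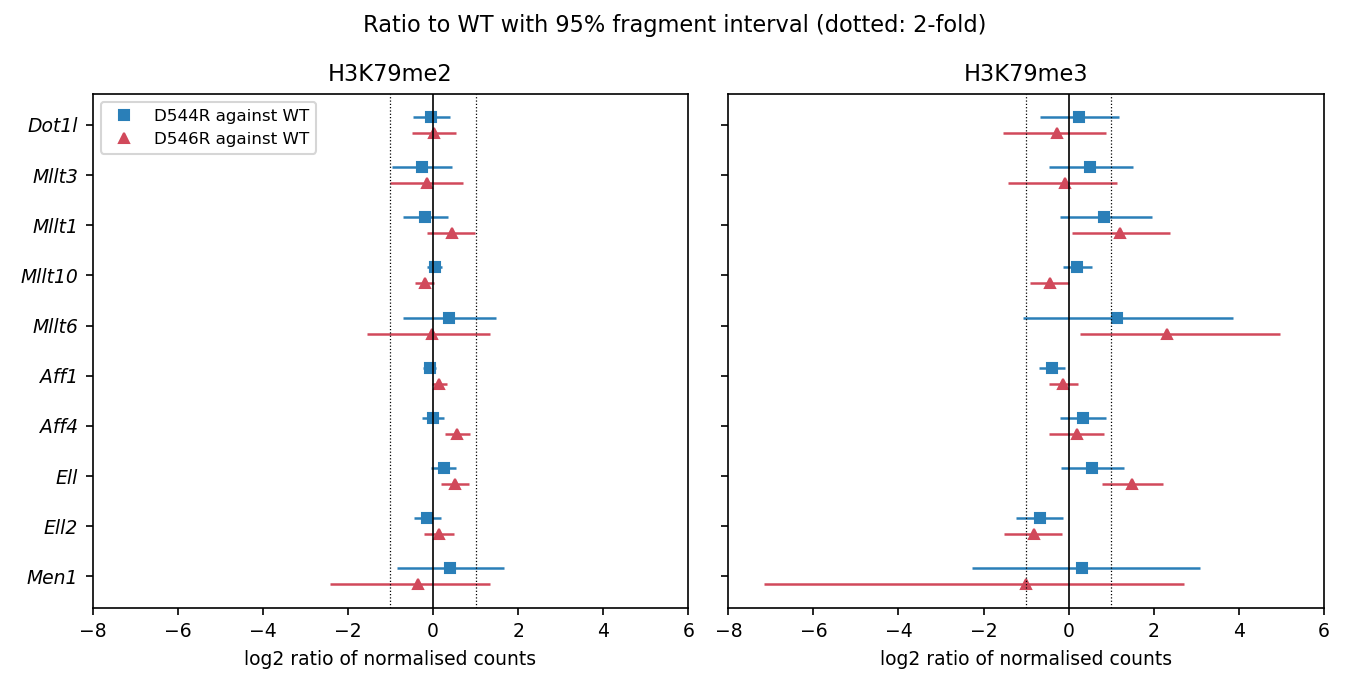
Log2 ratio of normalised counts of D544R and D546R to WT (x axis) for the 10 genes in H3K79me2 (left) and H3K79me3 (right), with 95% fragment intervals as lines, zero as a solid line and 2-fold as dotted lines. The H3K79me2 ratios all lie inside 2-fold, and in H3K79me3 Mllt6 (2.31), Ell (1.49) and Mllt1 (1.21) lie beyond it with intervals above 0 in D546R, of which Mllt6 is below the count minimum of the 2-fold rule.

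Aff1 and Aff4 are the scaffold genes. Aff1 had 3017, 2058 and 1904 H3K79me2 counts and 2022, 1370 and 2221 H3K79me3 counts in WT, D544R and D546R. Its ratios in H3K79me2 were -0.08 (-0.24 to 0.07) in D544R and 0.15 (-0.03 to 0.33) in D546R. In H3K79me3 they were -0.39 (-0.69 to -0.09) and -0.12 (-0.45 to 0.22). D544R was thus the lowest library of Aff1 in both marks after scaling, by at most 1.31-fold. D546R against D544R stood at 0.24 (0.05 to 0.42) in H3K79me2 and 0.27 (-0.08 to 0.62) in H3K79me3.

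Aff4 (NM_033565, chromosome 11, 53162269 to 53235332) had 980, 706 and 826 H3K79me2 counts, scaled to 727.9, 726.1 and 1081.4. WT and D544R were level, at 0.00 (-0.27 to 0.27), and D546R was 1.49-fold above each, with a log2 ratio to WT of 0.57 (0.28 to 0.86). That is just outside the 1.5-fold rule. The region overlapped those of Leap2 and Mir6920 over 5.09% of its length. In H3K79me3, with 496, 557 and 677 counts, D544R stood at 0.34 (-0.20 to 0.89) and D546R at 0.20 (-0.46 to 0.84).

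Ell (NM_007924, chromosome 8, 73061574 to 73116757) encodes an elongation factor of RNA polymerase II and is itself an MLL fusion partner. Among the 8 genes past the count minimum it had the highest H3K79me3 ratio of D546R to WT. In H3K79me3 it had 263 counts in WT, 343 in D544R and 878 in D546R, scaled to 267.8, 393.6 and 751.3. D546R was 2.80-fold higher than WT, a log2 ratio of 1.49 (0.78 to 2.23), and 0.93 (0.30 to 1.57) above D544R. D544R against WT stood at 0.55 (-0.18 to 1.31). Per kb the gene went from above 50.4% of regions in WT to 75.3% in D544R and 94.3% in D546R. In H3K79me2, with 741, 638 and 602 counts, D544R was at 0.25 (-0.04 to 0.55) and D546R at 0.52 (0.18 to 0.85), so D546R was the highest library of Ell in both marks.

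Ell2 (NM_138953, chromosome 13, 75842932 to 75909806), the paralog of Ell, went the other way in H3K79me3. It had 707 counts in WT, 391 in D544R and 479 in D546R, scaled to 720.0, 448.6 and 409.9. Both mutant libraries were lower than WT, by a log2 ratio of -0.68 (-1.24 to -0.14) in D544R and -0.81 (-1.52 to -0.15) in D546R. Both passed the 1.5-fold rule, also with fragment intervals, and both used the same WT library. D546R against D544R was -0.13 (-0.88 to 0.59). In H3K79me2 the counts were 795, 526 and 500 and the ratios -0.13 (-0.44 to 0.18) and 0.15 (-0.21 to 0.50).

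Men1 (NM_008583, chromosome 19, 6333039 to 6340894) encodes menin and had the shortest region, 7.9 kb, of which 20.94% overlapped that of Map4k2. It had 46, 44 and 20 H3K79me2 counts and 29, 32 and 17 H3K79me3 counts in WT, D544R and D546R. The ratios of D546R to WT were -0.36 (-2.43 to 1.33) and -1.0 (-7.16 to 2.71). D546R was the lowest library in both marks, and D546R against D544R stood at -0.77 (-2.80 to 0.87) and -1.32 (-7.39 to 2.10), the lowest of the 10 genes in each mark. In H3K79me3 the counting intervals of D546R lay below 0 against WT (-1.98 to -0.11) and against D544R (-2.28 to -0.44). The fragment intervals of Men1 included no change in all 6 comparisons, and its mean counts of 35.2 and 26.9 were below the minimum.

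Mllt1 and Mllt6, the lowest 2 genes per kb in WT H3K79me3, had 2 of the 3 highest D546R ratios in that mark. Across 4925 genes with a mean of at least 300, the D546R ratio to WT in H3K79me3 had a Spearman correlation of -0.56 with WT counts per kb of that mark, where both axes share the WT library. With WT counts per kb of H3K79me2, which share no library with the ratio, it was -0.30. For D546R against D544R, the ratio without the WT library, the values were -0.19 and -0.10. These are descriptions across genes, which are not independent. Ell, at the median per kb in WT (50.4th percentile), kept a ratio of 0.93 in the comparison without WT, and Mllt1 one of 0.38 (-0.59 to 1.32). Ell2, second of the 10 per kb in WT H3K79me3 (above 89.5% of regions), was lower than that WT library in both mutants. For D544R against WT the correlation with WT counts per kb of H3K79me3 was -0.55. How much of the ratios of Ell, Mllt1 and Ell2 this relation makes up was not tested.

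The 2 marks were set side by side for each gene in D546R against WT. Ell stood at 0.52 in H3K79me2 and 1.49 in H3K79me3, and Mllt1 at 0.44 and 1.21. Ell2 stood at 0.15 and -0.81, and Mllt10 at -0.19 and -0.44. The fragment intervals of the 2 marks overlapped for all 10 genes in all 3 comparisons, and the differences between marks were not tested.

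**Figure D3:**
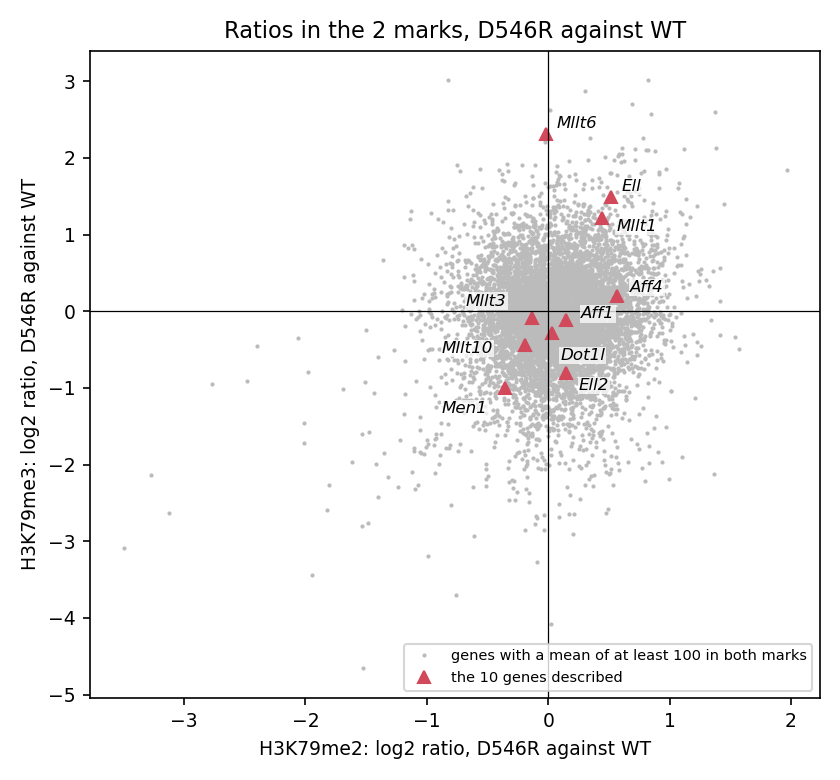
Log2 ratio of D546R to WT in H3K79me2 (x axis) and H3K79me3 (y axis) for the 8414 genes whose normalised counts averaged 100 or more in both marks (grey) and the 10 genes (triangles), of which Mllt6 and Men1 fell short of that average. Most of the 10 lie within the cloud, with Mllt6, Ell and Mllt1 in its upper part. Grey genes lie higher than each of these, for example Asnsd1 at 2.57 in H3K79me3.

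Values of the genes around each of the 10 were set beside them. Ell had 49 other genes within 500 kb, midpoint to midpoint, with a mean of at least 10 and no overlap with it, and their median H3K79me3 ratio in D546R was -0.12, with 4 at or above Ell. Mllt1 had 32, with a median of 0.31 and 4 at or above it. Mllt6 had 26, with a median of -0.20 and 0 at or above it. Ell2 had 6, with a median of -0.27. The neighbours of Aff4 had a median of -0.19 in H3K79me2, where Aff4 stood at 0.57 and 1 of 15 was at or above it. Ell, Mllt1, Mllt6, Ell2 and Aff4 were named here after their high or low ratios were seen. The scaling sets the typical gene to no change. A gap from the neighbour median was therefore likely beforehand. Whether the ratios belong to a wider change of the region was not tested.

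**Figure D4:**
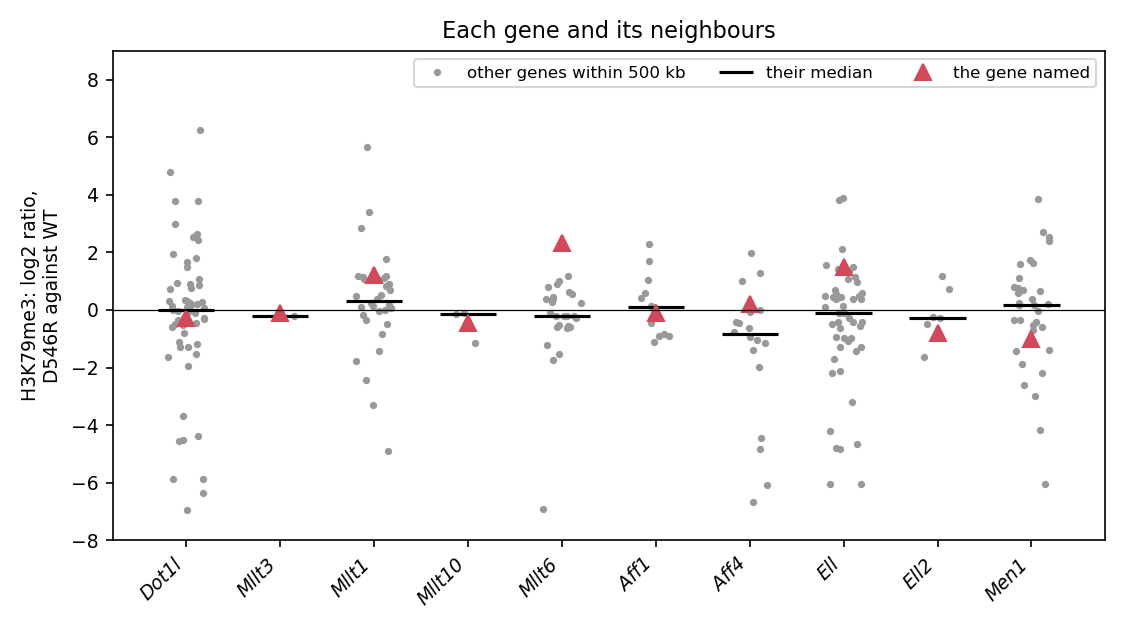
H3K79me3 log2 ratio of D546R to WT (y axis) for each of the 10 genes (triangles) and for the other genes with midpoints within 500 kb of its own that do not overlap it (grey points, horizontal jitter without meaning, black line at their median). Ell (1.49) and Mllt6 (2.31) lie above neighbour medians of -0.12 and -0.20.

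A list of 31 other genes, not all of them subunits of these complexes, was also examined. All were in the table, 2 of them under another name. The list covered, among others, AFF and ELL relatives, P-TEFb, the PAF1 complex, MLL partners and Polycomb proteins that bind AF9. In H3K79me2, of the 26 with a mean of at least 100, 0 were past the 2-fold rule in D544R or D546R against WT. Of all genes with that mean, 0.0449% and 1.75% were. The lowest and highest of these 26 were Sirt1 (-0.47) and Bcor (0.52) in D544R, and Bcor (-0.92) and Npm1 (0.55) in D546R. Bcor encodes a corepressor, and its D546R ratio to D544R in H3K79me2 was -1.44 (-1.75 to -1.13). It was the 1 gene of the 26 past the rule there, where 1.65% of all genes were.

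In H3K79me3, of 25 with that mean, 1 was lower and 1 higher in D544R against WT, and 3 were lower and 2 higher in D546R against WT. These 2 and 5 of 25 genes stand beside the shares of 7.38% and 15.9% of all genes given earlier and are near them, so the following values only describe the list. Ash2l, which encodes a core subunit of MLL complexes, had 233, 85 and 116 counts in WT, D544R and D546R, and log2 ratios of -1.28 (-2.49 to -0.18) and -1.25 (-2.81 to 0.05). Leo1, a PAF1 complex gene, had 60, 131 and 154, and ratios of 1.29 (-0.11 to 2.92) and 1.10 (-0.58 to 2.88). In D546R the MLL complex gene Dpy30 was the lowest at -1.46 (-3.40 to 0.08), the MLL complex gene Wdr5 the highest at 1.13 (-0.01 to 2.32), and Bcor stood at -1.25 (-1.93 to -0.62). Bcor was the 1 gene of the 5 whose fragment interval excluded no change. In D546R against D544R it stood at -1.47 (-2.14 to -0.85), the 1 gene of the 25 past the rule, where 14.1% of all genes were.

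The list's median log2 ratios to WT in D544R and D546R were 0.03 and 0.11 in H3K79me2 and 0.06 and -0.10 in H3K79me3. Marker lists of other blood cells and tissues were summed as CPM (counts scaled to the library total) per kb, in the order WT, D544R, D546R. The sums of 8 mature myeloid genes were 9.61, 10.83 and 20.69 in H3K79me2 and 6.03, 7.14 and 14.94 in H3K79me3. All 8 had counts in H3K79me2, while in H3K79me3 Camp in D544R and Ngp in D546R were at 0. A count of 0 allows up to 3 independent fragments. These 2 libraries had an estimated 8.12 and 18.63 reads per fragment, so the limit in counts is higher than 3. The median fold of these 8 mature myeloid genes over the silent genes was 2.38, 2.26 and 7.58 in H3K79me2. In H3K79me3 it was 2.78, 1.52 and 1.79. The median of the silent genes itself was 2.61, 2.01 and 0.84 counts per kb in H3K79me2 and 1.67, 2.62 and 5.07 in H3K79me3. These folds therefore cannot be compared between libraries. The sums of 5 erythroid and megakaryocyte genes were 1.96, 2.51 and 2.70 in H3K79me2 and 3.61, 2.30 and 5.06 in H3K79me3, with Pf4 at 0 in both mutants in H3K79me3. Those of 5 stroma and other tissue genes were 2.07, 1.94 and 1.97, then 3.21, 2.55 and 4.71, with Myod1 at 0 in D546R in H3K79me3. Those of 5 lymphoid genes were 3.15, 2.39 and 2.27, then 3.41, 4.74 and 3.01. D546R thus had the highest H3K79me3 sum of 3 of these 4 lists. The part of a different mix of cells in the ratios of Ell, Mllt1 and Aff4 was not tested.

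The genes closest to Dot1l over the 6 libraries, by the root mean square difference of log2 normalised counts per kb among 3530 genes, were Rb1 (0.180), Pfkp (0.182) and Sesn1 (0.185). Those closest to Mllt3 were Fig4 (0.119), Mllt4 (0.122) and 2810055G20Rik (0.129). The compared genes averaged at least 300 in both marks, which Dot1l and Mllt3 did not. In H3K79me2 and H3K79me3 the means were 297.8 and 192.4 for Dot1l and 114.5 and 179.3 for Mllt3. The distances carry no interval, so the order among the closest genes was not resolved. Mllt4 encodes afadin, another MLL fusion partner, and belongs to the list of 31.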

How the data were processed

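The values are the authors' whole-number read counts for each gene's region, not normalised. Per the labels, chromatin was sonicated to about 300 bp and sequencing runs were merged. The submitters' processing notes name mm9, Bowtie, bedtools and DESeq, without versions or roles. Start coordinates were counted from 0 in the table and are given here from 1. Size factors (H3K79me2: WT 1.35, D544R 0.972, D546R 0.764. H3K79me3: WT 0.982, D544R 0.872, D546R 1.17) came from 23029 and 20863 genes with counts in all 3 libraries. Log2 ratios had a prior count of 0.5, and 95% intervals were exact conditional binomial (Clopper-Pearson). Reads per fragment were solved from the share of 4591 autosomal regions under 5 kb with no count, which treats all as reachable. Fragment intervals can therefore be too wide. Whether duplicates were removed is not stated.

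The 10 genes, the lists and the thresholds were chosen with earlier results of these data known. Named genes were the 10, the lowest, highest and all members of the other list past the rule, and the 3 closest to Dot1l and to Mllt3 with means of at least 300 in both marks. Neighbour values, relations with WT counts per kb and CG counts were added after values were seen. Python 3.11.15, scipy 1.17.1 and edgeR 4.0.16 (TMM factors, as an alternative scaling) were used. Ratios and counting intervals were tested on simulated data in which all reads were independent. That is not the case in these libraries, and fragment intervals were not simulated.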

Additional observations from a re-analysis of the deposited data

Results flagged for a closer look

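Aff1 in D546R against WT stood at 0.15 in H3K79me2 (counting interval 0.07 to 0.24) and at -0.12 in H3K79me3 (-0.20 to -0.03), a difference of -0.27 with opposite directions in the marks. The difference was not tested, and both fragment intervals included no change.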

How the results depend on the processing

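No paired analysis was possible because each group had 1 library, and for the same reason no library could be left out. Scaling to silent genes, to totals, with TMM (edgeR) or with 1 set of size factors for both marks, and a prior count of 5, gave 300 alternative log2 ratios for the 10 genes. Of these, 298 moved by less than the counting error, the exceptions being Mllt10 (-0.08) and Aff1 (0.27) in D546R against WT in H3K79me2 with silent genes, and 0 called ratios changed sign. There the silent-gene scaling shifted all genes by 0.11 at the median. The median of the 10 genes turned to 0.06 in D544R against WT in H3K79me2 with that scaling, and to 0.07 in D546R against D544R in H3K79me3 over genes overlapping no other region, where it also went from 0.33 to 0.06 in D544R against WT. The number of genes past the 2-fold rule in H3K79me3 depended on the count filter. Without a minimum it was 4 in D546R against WT, 1 in D544R against WT and 2 in D546R against D544R, since Mllt6 and Men1 then entered. With a mean of at least 300 it was 1 in D546R against WT, since Mllt1 left. Scaled to totals it was 1 in D546R against D544R. At 1.5-fold it was 2 and 3 in the H3K79me3 comparisons of D544R against WT and D546R against D544R, and 1 in H3K79me2 in D546R against D544R. With fragment intervals it stayed at 2 in D546R against WT in H3K79me3. Shares over all genes were computed only for the 2-fold and 1.5-fold rules at the main settings. Counts with another filter, scaling or interval therefore cannot be read against the shares given earlier. With the median of all genes in place of the silent genes, the WT folds per kb of all 10 genes were lower, for example Dot1l 2.50 against 3.74 in H3K79me2 and 0.99 against 2.74 in H3K79me3. Levels per library total have another unit and were not compared with these folds. The median count per kb of the silent genes rests on few reads and went from 0.84 to 5.07 between libraries. The silent-gene scaling of the ratios did not follow this median. In D546R against WT in H3K79me3 that scaling shifted all genes by -0.01, while the silent median went from 1.67 to 5.07. Over this median, Mllt1 stood at 1.63-fold in WT and 1.48-fold in D546R in H3K79me3, and Ell at 2.85-fold and 3.14-fold. The higher D546R ratios of Mllt1 and Ell were thus not shown to hold against it. Because of the few reads, other folds of the 10 genes over it were given for WT only. Those of the mature myeloid genes are not compared between libraries. Few counts limit Men1 and Mllt6, and more reads per fragment widen the H3K79me3 intervals of a gene at a given count.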
